A study of Mus musculus with 6 samples.

Results

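The mitochondrial solute carriers are the proteins of the SLC25 family, most of which sit in the inner mitochondrial membrane. They were taken here as all rows of the count table whose symbol starts with Slc25a, without Slc25a20, which gave 46 of 24421 rows. The cells are group 2 innate lymphoid cells (ILC2), which have no antigen receptor, live in tissues and secrete type 2 cytokines. The libraries hold total RNA of ILC2 that had been sorted by surface markers from the brains of C57BL/6 mice and then grown for 2 weeks in medium with fetal calf serum, IL7, IL2, IL33 and SCF, a culture that both groups share. Young mice were 2 to 3 months old and aged mice 20 to 22 months old, with 3 libraries in each group and no further treatment or genotype in the labels. The labels do not say which libraries came from separate mice or cultures, and a p-value here reflects the spread among these 6 libraries alone, which may be technical.

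The inner mitochondrial membrane is impermeable to most charged metabolites, and carriers of this family move them across it, usually by exchanging a molecule on one side for one on the other. They supply ADP and phosphate to the ATP synthase, let citrate and malate leave, bring in amino acids and glutathione, and deliver cofactors and iron. Not every member sits in the inner membrane: Slc25a17 is found in the peroxisomal membrane, and Slc25a46 in the outer mitochondrial membrane.

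Library totals ran from 16477157 to 20804291 counts. Values of carriers are CPM, the count of a gene over the total of its library, after TMM scaling, which aligns the libraries on the bulk of their genes. Marker levels in this paragraph are CPM of library totals, without TMM scaling. Of the ILC2 markers all 11 had counts, and their summed level was 8670 to 10200 CPM in the young and 4330 to 6170 CPM in the aged group. Most of that sum was Il5, at a mean of 6150 and 2800 CPM, while Gata3 was at 477 and 165 CPM, Il7r at 112 and 106 CPM and Thy1 at 74.7 and 123 CPM. Klrg1 was at 99.8 and 1.27 CPM, Il17rb at 14.1 and 1.29 CPM and Il1rl1 at 563 and 239 CPM. On this scale Thy1 alone of the 11 markers had a higher mean in the aged group. TMM factors were 1.1232 to 1.1808 in young and 0.8398 to 0.8849 in aged libraries, so TMM scaling raises aged values relative to young ones. It would turn the order of Il7r and of Areg, which was at 503 and 471 CPM. Dendritic cell markers summed to 76.6 to 98.7 CPM in the young and 270 to 297 CPM in the aged group, most of it Batf3, at 77.7 and 274 CPM. The rest of that list was low, with Xcr1 at 4.23 and 5.36 CPM and Flt3 at 0.952 and 1.84 CPM. Itgax, at 0.945 and 0.0189 CPM, and Zbtb46, at 0.932 and 0.735 CPM, were lower in the aged group. Those of microglia and macrophages summed to 4.34 to 18.0 and 54.1 to 84.1 CPM, with Csf1r at 0 counts in all libraries. Within that list the mean of Tmem119 was 0.794 and 44 CPM and that of P2ry12 2.89 and 13.4 CPM, while Cx3cr1 was at 4.4 and 0.412 CPM and Adgre1 at 3.01 and 0 CPM. The B cell list summed to 16 to 25.7 and 27.9 to 51.6 CPM, all of it Cd79b, with Cd79a and Ms4a1 at 0. For T cells the sums were 7.89 to 15.3 and 5.89 to 13.0 CPM with Cd3e, Cd4 and Cd8a at 0, and the 4 NK cell and ILC1 markers were at 0. Mast cell and basophil markers reached at most 9.42 CPM in the young and 0.17 CPM in the aged group. Markers of neural and endothelial cells summed to 94.8 to 163 and 127 to 156 CPM, most of it Pecam1. The part of these shifts in the results below was not tested, and in bulk RNA fewer cells of a type and less RNA per cell cannot be told apart.

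Promoter sequences are shown first for the carriers on which the results turn, the 4 that rose in aged libraries and 2 that fell and have a single listed start. Each line gives the 100 bases before a start of transcription listed by RefSeq in GRCm38.p6, 5′ to 3′ on the strand of the gene. Starts differ between annotations: the stretch of Slc25a4 lies within the GENCODE bounds of the gene given below, and that of Slc25a17 runs into them. Capitals mark matches to the motifs named after the lines.
Slc25a4, chr8:46211063-46211162, minus strand: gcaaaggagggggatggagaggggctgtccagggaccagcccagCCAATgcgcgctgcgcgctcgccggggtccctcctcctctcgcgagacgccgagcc
Slc25a5, chrX:36795497-36795596, plus strand: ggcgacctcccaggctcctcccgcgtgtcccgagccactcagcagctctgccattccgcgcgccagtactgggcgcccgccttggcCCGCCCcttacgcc
Slc25a1, chr16:17928220-17928319, minus strand: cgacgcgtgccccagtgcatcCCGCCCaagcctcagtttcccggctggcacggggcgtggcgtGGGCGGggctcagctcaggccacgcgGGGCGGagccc
Slc25a40, chr5:8422738-8422837, plus strand: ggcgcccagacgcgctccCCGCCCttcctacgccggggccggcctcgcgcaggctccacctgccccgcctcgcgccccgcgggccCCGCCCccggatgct
Slc25a12, chr2:71367756-71367855, minus strand: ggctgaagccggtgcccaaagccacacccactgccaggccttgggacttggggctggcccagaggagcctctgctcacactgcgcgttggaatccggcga
Slc25a17, chr15:81360766-81360865, minus strand: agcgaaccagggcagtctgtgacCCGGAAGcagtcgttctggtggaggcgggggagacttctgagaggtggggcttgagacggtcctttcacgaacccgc

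The motifs, searched on both strands, were the ETS core (CCGGAAG), an NRF1 core (GCGCANGCG), the GC box (GGGCGG), the CCAAT box (CCAAT), the E-box (CACGTG) and the TATA box (TATAAA), none of which holds another. RefSeq windows of 300 bases, 250 before and 50 after a start, were listed for 35 of the 46 carriers. The GC box was in 34 of 40 windows of tested carriers (85.0%), against 62.7% of the 11448 windows of all tested genes and 35.7% of all 32851 windows. The CCAAT box was in 52.5% of windows of tested carriers and in 37.8% of windows of tested genes. The ETS core was in 12.5% and 18.1%, the E-box in 17.5% and 9.97%, and the TATA box in 2.5% and 6.73%. The NRF1 core was in 1 of 40 windows of tested carriers (2.5%), against 13.7% of windows of tested genes. The windows of all 4 carriers that rose held a GC box, but so did those of Slc25a17 and Slc25a53, which fell. Those of Slc25a21 held no GC box, and that of Slc25a12 held none of the motifs. A match is a description of the letters and not a bound site.

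Carriers moved in both directions. Of the 46, 39 passed the filter on low counts and were tested, and 4 were higher and 4 lower in aged libraries at an adjusted p under 0.05 (edgeR's quasi-likelihood test, Benjamini-Hochberg over all 11805 tested genes). Slc25a4, Slc25a5, Slc25a1 and Slc25a40 rose, with fitted changes of 1.69-fold, 1.39-fold, 2.02-fold and 3.6-fold, and Slc25a12, Slc25a17, Slc25a53 and Slc25a21 fell. With scaling by library totals 1 carrier was higher (2.56%, against 6.08% of all tested genes) and 8 were lower (20.5%, against 20.2%). The share called, 20.5%, was near that of all tested genes, 19.4%. Higher calls made up 10.3% of carriers against 11.2% of all tested genes, and lower calls 10.3% against 8.14%. The median log2 change of the tested carriers was -0.104, and that of all tested genes -0.101. Young and aged values did not overlap in 14 of the 39 carriers (35.9%), against 38.2% of all tested genes. Of the 31 carriers not called, 13 had log2 changes above 0 and 18 below, from -2.08 to 1.13. Leaving out young library 1, aged library 1 or aged library 2 brought the higher calls to 2 (5.13%), against 7.49%, 8.83% and 7.68% of all tested genes. Leaving out young library 1 or young library 2 brought the lower calls to 2 (5.13%), against 3.27% and 3.95% of all tested genes.

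**Figure D1:**
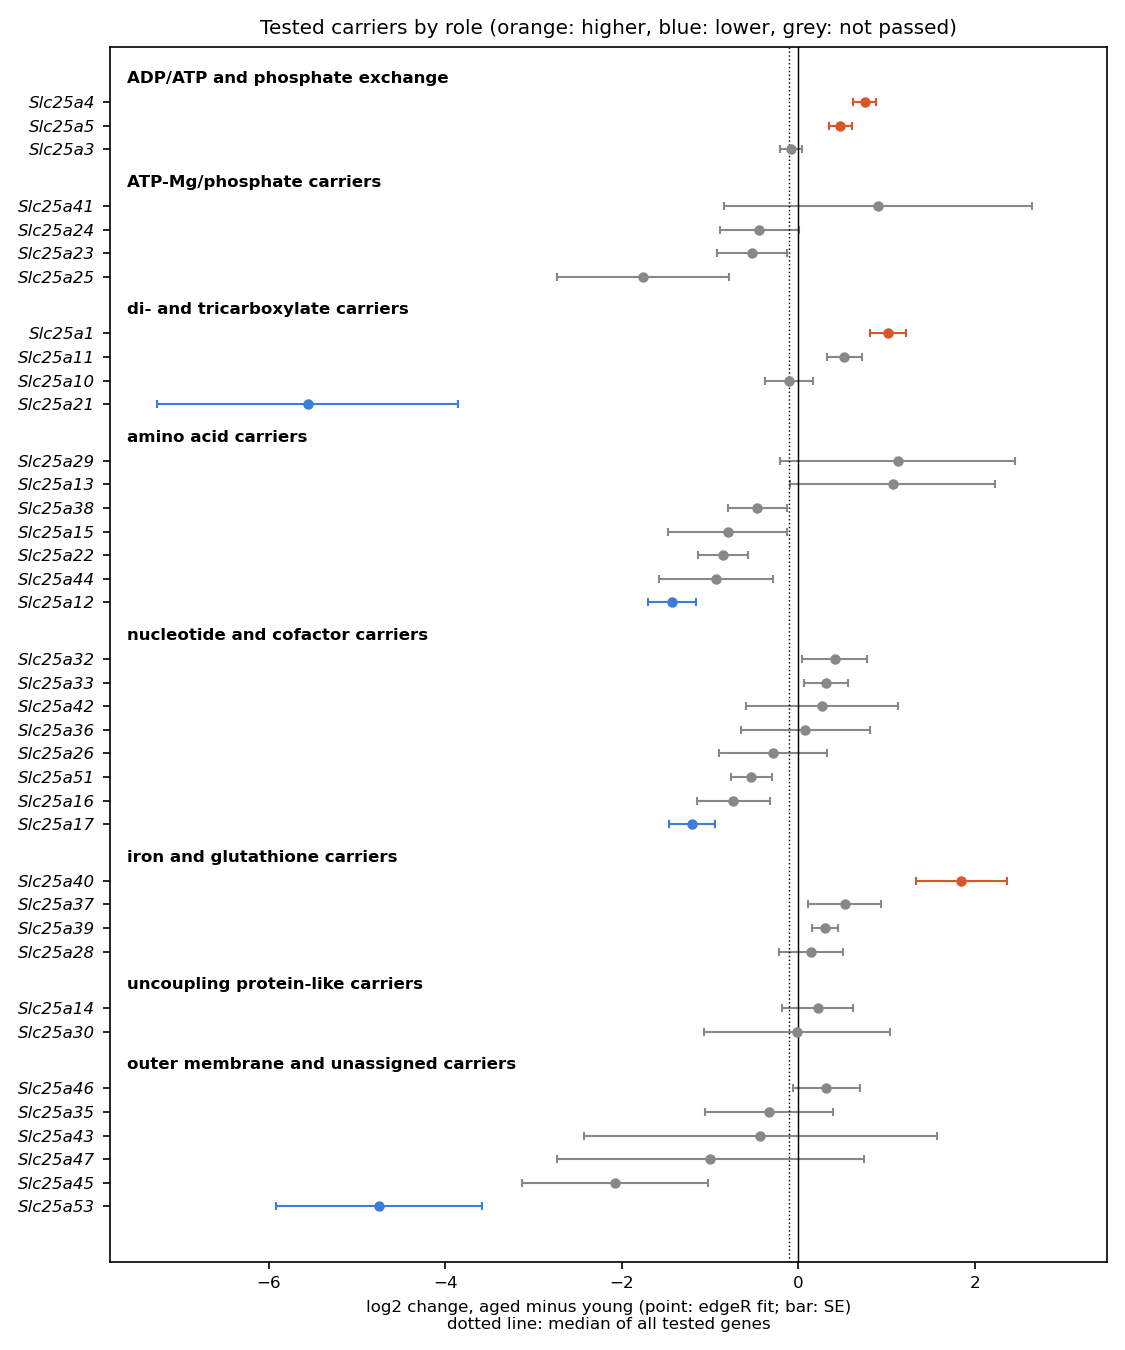
Log2 change of 38 tested carriers, aged minus young, from edgeR (point) with its SE (bar), grouped by transported substrate. Orange marks the 4 carriers called higher, blue the 4 called lower and grey 30 that were not called, and the dotted line is the median of all tested genes (-0.101).

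Summed over all 46 carriers, the level was 2735, 2980 and 2919 CPM in the young libraries and 3355, 3552 and 3316 CPM in the aged libraries. The aged sums all lie above the young ones, but the order depends on the scaling. As CPM of library totals the young sums averaged 3327 ± 173 and the aged sums 2948 ± 31.1 (SD, n = 3 each), lower in the aged group. The 3 carriers of phosphate and ADP/ATP exchange, Slc25a3, Slc25a4 and Slc25a5, made up 57.8 ± 2.69% of the young and 63.8 ± 1.05% of the aged sum (SD, n = 3 each), a share that no scaling changes. Scaling by library totals moved the median log2 change of all tested genes from -0.101 to -0.517. Directions of log2 changes and CPM values given here are therefore relative to TMM, except for marker levels and where another scaling is named. The TMM factors were 1.1232 to 1.1808 in young and 0.8398 to 0.8849 in aged libraries.

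Both ADP/ATP exchangers rose while the phosphate carrier did not pass the test. Slc25a4 (ANT1), on chromosome 8 (GRCm38, as for all positions here, 46206797 to 46211284, minus strand), exchanges matrix ATP for cytosolic ADP and was at 436, 447 and 497 CPM in the young and 726, 878 and 724 CPM in the aged group. The groups did not overlap, and the log2 change was 0.75 ± 0.13 (SE; edgeR adjusted p = 0.002482). Without any single library the call was kept, with log2 changes of 0.66 to 0.84, and it was lost with scaling by library totals (0.34, adjusted p = 0.058). Slc25a5 (ANT2), on chromosome X (36795651 to 36798807, plus strand), catalyses the same exchange and is the form of dividing cells. It was at 521, 560 and 646 CPM in the young and 793, 748 and 862 CPM in the aged group, again without overlap. Its log2 change was 0.48 ± 0.13 (SE; edgeR adjusted p = 0.02573), the smallest of the 8 called. That call was lost without young library 1, young library 2 or any of the aged libraries (adjusted p up to 0.151), with scaling by library totals (0.06) and with offsets for transcript length and GC content (0.14). Reads of Slc25a5 are uncertain beyond that, since 7 annotated pseudogenes match its transcript at 90% identity or more over at least 200 bases, and 0 of them have a row of their own in the table.

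Slc25a3, which imports the phosphate used to make ATP, was at 578, 676 and 636 CPM in the young and 593, 626 and 568 CPM in the aged group. The groups overlapped, and the log2 change was -0.08 ± 0.12 (SE; edgeR adjusted p = 0.714). It turned to 0.29 with the length and GC offsets (adjusted p = 0.143), and with scaling by library totals it was -0.50 (adjusted p = 0.0109). Slc25a31, the form of the exchanger known from germ cells, had 0 counts in all 6 libraries, which allows up to 0.0275 CPM (3 counts over all libraries, counting error only).

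**Figure D2:**
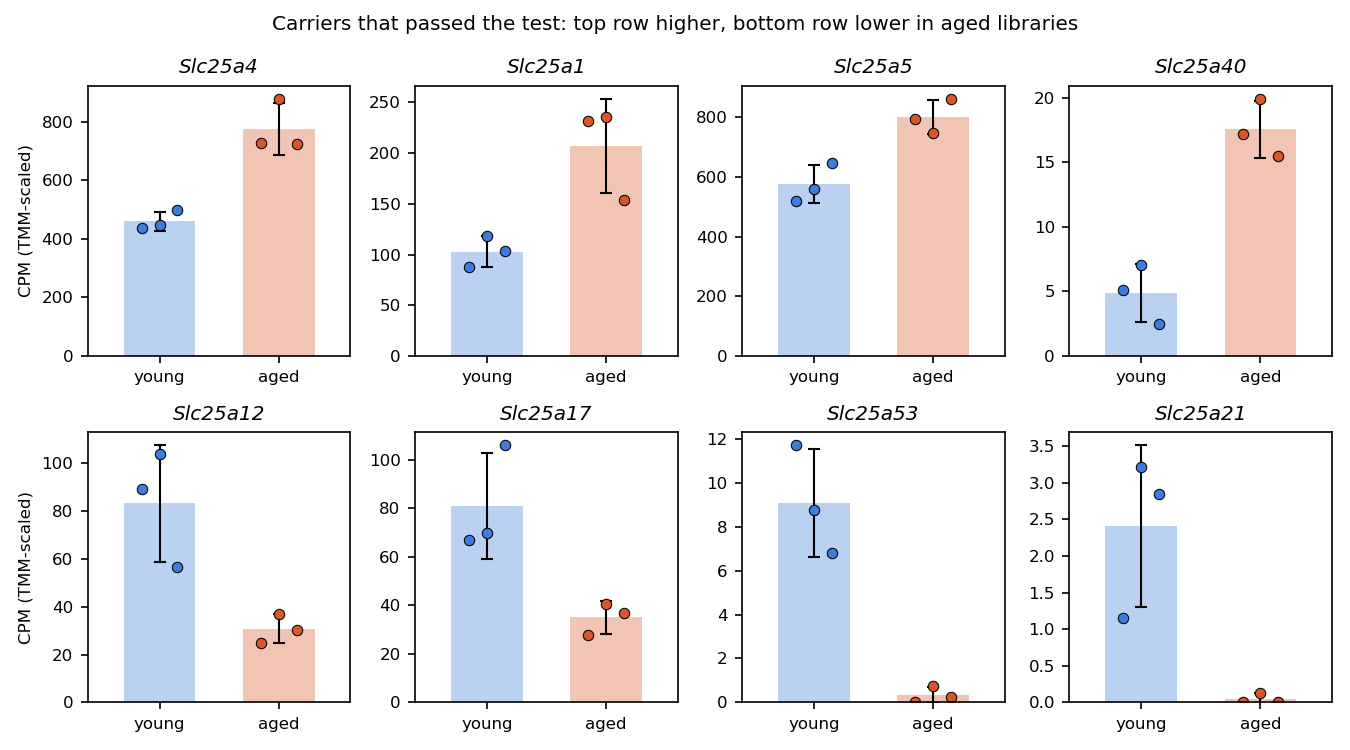
TMM-scaled CPM of the 8 carriers that passed the test, with points for single libraries, bars for group means and error bars for the SD (n = 3 each). In each panel the young and aged points do not overlap, and Slc25a53 and Slc25a21 are close to 0 in aged libraries.

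Per kilobase of the longest protein-coding transcript, a length chosen after the data were seen, Slc25a5 was the most abundant carrier in both groups, at 464.3 CPM per kb in young and 645.8 in aged libraries. Slc25a3 and Slc25a4 came next, in that order in the young group, at 391 and 238.9 CPM per kb, and in the reverse order in the aged group, at 369.4 and 403.1 CPM per kb. With the longest transcript of any kind as the length, 4039 bases in place of 1612 for Slc25a3, that carrier was at 156 and 147.4 CPM per kb, behind Slc25a4 in both groups. At that length the aged mean of Slc25a3 lay close to that of Slc25a39, 142.2 CPM per kb. Below these 3 came Slc25a39, Slc25a11 and Slc25a1, at 115.3, 80.2 and 61.65 CPM per kb in young and 142.2, 115 and 124.6 in aged libraries. The lowest tested carrier of the young group was Slc25a43, at 0.57 CPM per kb. The other 7 carriers were not tested: Slc25a31, Slc25a34, Slc25a48 and Slc25a54 had 0 counts, and Slc25a2, Slc25a18 and Slc25a27 had 11, 5 and 5 counts in a single library each.

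**Figure D3:**
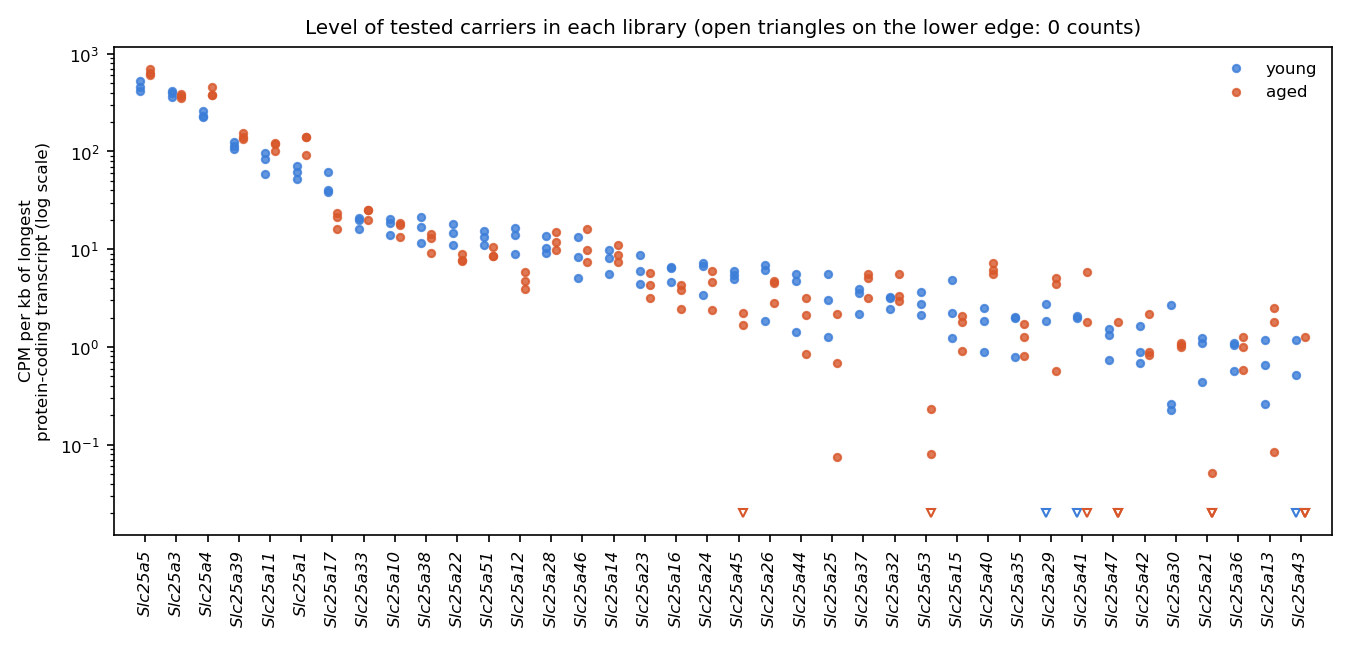
Level of 38 tested carriers in every library as CPM per kb of the longest protein-coding transcript, on a log scale, ordered by the young mean. Slc25a5, Slc25a3 and Slc25a4 stand above the rest in both groups, and open triangles on the lower edge mark libraries with 0 counts.

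The ATP-Mg/phosphate carriers, most of which are regulated by calcium, adjust the adenine nucleotide pool of the matrix, and none of the 4 tested passed. Slc25a25 was at 10.6, 4.48 and 19.9 CPM in the young and 0.265, 2.42 and 7.62 CPM in the aged group, with overlapping groups and a log2 change of -1.76 ± 0.98 (SE). Slc25a23 had a log2 change of -0.52 ± 0.40 (SE), at 21.3 ± 7.14 and 14.8 ± 4.26 CPM (SD, n = 3 each). Slc25a24 was at 20.02 ± 7.14 and 14.8 ± 6.12 CPM, and Slc25a41 at 1.66 ± 1.44 and 3.11 ± 3.66 CPM (SD, n = 3 each).

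Among the di- and tricarboxylate carriers 1 of 4 rose and 1 fell. Slc25a1, the citrate carrier on chromosome 16 (17925223 to 17928219, minus strand), provides the cytosol with citrate for lipid synthesis and was at 87.6, 118 and 103 CPM in the young and 232, 236 and 154 CPM in the aged group. The groups did not overlap, with aged library 3 the lowest of its group, and the log2 change was 1.01 ± 0.20 (SE; edgeR adjusted p = 0.005324). It was kept without any single library (0.91 to 1.19), and it was the sole carrier still called higher with scaling by library totals (0.59, adjusted p = 0.0499). With length and GC offsets it was 0.63 and still called. Slc25a21, the carrier of 2-oxoadipate on chromosome 12 (56712634 to 57197472, minus strand), had 22, 79 and 56 counts in young and 0, 2 and 0 counts in aged libraries. The groups did not overlap, at 157 against 2 counts in sum, a scaled ratio of young over aged of 56.6 with a 95% exact interval of 15.4 to 471 that covers counting error only. Its adjusted p of 0.04201 (edgeR) was the weakest of the calls, and leaving out any 1 of the 6 libraries lost it (adjusted p up to 0.132), as did limma-voom, robust dispersion and the absence of a filter on low counts.

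Slc25a11, which exchanges oxoglutarate for malate in the malate-aspartate shuttle, was at 167, 144 and 101 CPM in the young and 211, 204 and 175 CPM in the aged group. These groups did not overlap either, but the log2 change of 0.52 ± 0.20 (SE; edgeR adjusted p = 0.09478) did not pass, except in DESeq2 (adjusted p = 0.0298). Slc25a10, the dicarboxylate carrier, was at 35.7 ± 6.43 and 33.2 ± 5.67 CPM (SD, n = 3 each).

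Of 7 tested amino acid carriers 1 fell and none rose. Slc25a12 (aralar), an exchanger of aspartate for glutamate in the malate-aspartate shuttle on chromosome 2 (71271063 to 71367749, minus strand), was at 89.0, 104 and 56.5 CPM in the young and 25, 37.1 and 30.2 CPM in the aged group. All aged values lay below all young ones, and it fell, with a log2 change of -1.43 ± 0.27 (SE; edgeR adjusted p = 0.004206). The fall was kept without any single library (-1.62 to -1.23), and with the length and GC offsets it was -0.74 and not called (adjusted p = 0.0717). Its longest transcript, 6351 bases, is the longest of the 8 called carriers. Slc25a13 (citrin), which catalyses the same exchange, was far lower, at 2.03, 3.70 and 0.813 CPM in the young and 0.265, 7.88 and 5.65 CPM in the aged group. Its groups overlapped, with a log2 change of 1.07 ± 1.17 (SE; edgeR adjusted p = 0.5948).

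Slc25a22, a carrier of glutamate, was at 51.2, 41.5 and 31.0 CPM in the young and 21.8, 21.5 and 25 CPM in the aged group, without overlap. Its log2 change of -0.86 ± 0.29 (SE; edgeR adjusted p = 0.05863) just missed the threshold, and it passed in DESeq2 (adjusted p = 0.0492), with scaling by library totals (0.0101) and without young library 3 (0.0397). The glycine carrier Slc25a38, which serves heme synthesis, was at 29.95 ± 8.89 and 21.7 ± 4.84 CPM (SD, n = 3 each). The carriers Slc25a15, for ornithine, and Slc25a44, for branched-chain amino acids, were at 9.52 ± 6.46 and 14.01 ± 7.93 CPM in the young and 5.47 ± 2.10 and 7.35 ± 4.14 CPM in the aged group (SD, n = 3 each). Slc25a29, for basic amino acids, was at 3.03 ± 2.79 and 6.64 ± 4.82 CPM (SD, n = 3 each).

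The nucleotide and cofactor carriers had 1 member that fell of 9 tested. Slc25a17, the peroxisomal carrier of coenzyme A, FAD and NAD on chromosome 15 (81318911 to 81360812, minus strand), was at 67.0, 69.9 and 106 CPM in the young and 27.6, 40.7 and 36.9 CPM in the aged group. The groups did not overlap, and it fell, with a log2 change of -1.205 ± 0.26 (SE; edgeR adjusted p = 0.007794). Among the 8 called carriers it was the sole one called under all 17 alternatives, with log2 changes of -1.62 to -0.93 and adjusted p of at most 0.0328. Slc25a51, which brings NAD into mitochondria, was at 48.6, 59.8 and 67.8 CPM in the young and 38.0, 46.3 and 37.5 CPM in the aged group. It did not overlap between groups and did not pass (log2 change of -0.53 ± 0.23, SE; adjusted p = 0.1404, edgeR), although it passed with scaling by library totals (-0.95, adjusted p = 0.012), and the difference was 0.01 with the length and GC offsets. Slc25a33, a carrier of pyrimidine nucleotides, was at 35.7 ± 4.50 and 44.5 ± 5.55 CPM (SD, n = 3 each), and Gm13068 on the opposite strand covers 14.9% of its exon bases. A further 5, Slc25a16, Slc25a26, Slc25a32, Slc25a36 and Slc25a42, had mean levels of 3.43 to 18.4 CPM in the young and 4.15 to 23.2 CPM in the aged group.

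Of the 4 iron and glutathione carriers, 1 rose. Slc25a40, on chromosome 5 (8422850 to 8454797, plus strand), is related to the glutathione carrier Slc25a39 and was at 5.11, 7 and 2.49 CPM in the young and 17.2, 19.9 and 15.5 CPM in the aged group. Every aged value was above every young one, and the log2 change was 1.85 ± 0.52 (SE; edgeR adjusted p = 0.02838). Leaving out young library 1, young library 3, aged library 1 or aged library 2 lost the call (adjusted p up to 0.0847), as did scaling by library totals (1.42). It has 1 annotated pseudogene by the same criteria as for Slc25a5, without a row in the table. Slc25a39, which imports glutathione into mitochondria, was at 192, 213 and 178 CPM in the young and 258, 235 and 225 CPM in the aged group. These groups did not overlap, the log2 change of 0.30 ± 0.15 (SE) did not pass (adjusted p = 0.1837, edgeR), and it was -0.12 with scaling by library totals and -0.06 with the length and GC offsets. The iron carriers Slc25a37 and Slc25a28 (mitoferrins) were at 13.5 ± 3.89 and 16.9 ± 3.68 CPM in the young and 19.4 ± 5.39 and 18.7 ± 3.81 CPM in the aged group (SD, n = 3 each).

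Within related pairs, the share of each member was compared per kilobase of the longest protein-coding transcript, which does not depend on the scaling of libraries. Slc25a4 made up 35, 33.9 and 33.1% of Slc25a4 and Slc25a5 in young and 37.1, 43.1 and 35.1% in aged libraries, where the lowest aged share lay just above the highest young one. Slc25a12 made up 95.6, 93.2 and 97.2% of its pair with Slc25a13 in young and 97.9, 69.8 and 72.4% in aged libraries. That spread within the aged group follows the Slc25a13 counts, which were 4, 117 and 89 in aged libraries 1 to 3. Slc25a40 took 1.59, 1.95 and 0.84% of its pair with Slc25a39 in young and 3.88, 4.88 and 3.99% in aged libraries, which did not overlap. Slc25a37 took 22.8 ± 6.64% of the mitoferrin pair in the young and 28.1 ± 9.47% in the aged group (SD, n = 3 each), with overlap. Slc25a10, set beside the other dicarboxylate exchanger Slc25a11, took 18.2 ± 2.02% of that sum in the young and 12.6 ± 2.8% in the aged libraries (SD, n = 3 each), without overlap. The other pairs compared overlapped between groups. Mean young and aged shares were 4.63 and 4.0% for Slc25a36 beside Slc25a33. Beside Slc25a24 they were 35.3 and 18.5% for Slc25a25, and 52.4 and 51.6% for Slc25a23.

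**Figure D4:**
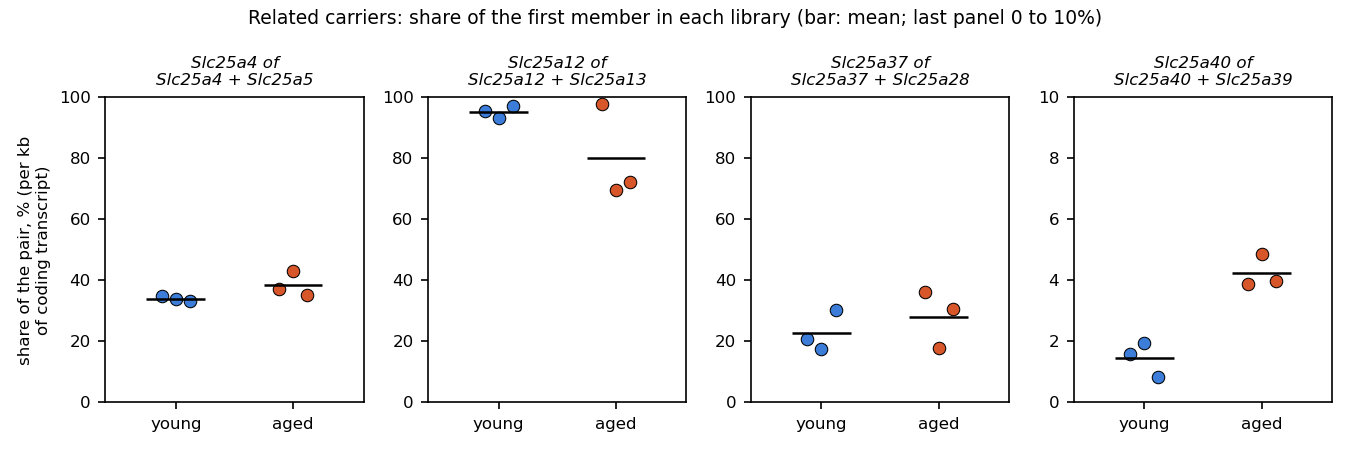
Share of the first named carrier in the per-kb sum of a related pair, in percent, for each library (points) with the group mean (bar). Slc25a4 and Slc25a40 take a larger share of their pairs in each aged library, and aged library 1 stands apart from the other aged libraries for Slc25a12.

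Carriers that resemble uncoupling proteins did not pass. Slc25a14 was at 14.1 ± 3.86 and 16.5 ± 3.33 CPM (SD, n = 3 each), with a log2 change of 0.22 ± 0.40 (SE) that was -0.19 with scaling by library totals. Slc25a30 was at 0.939, 9.53 and 0.813 CPM in the young and 3.78, 3.91 and 3.56 CPM in the aged group. Young library 2 stands apart here, and without it the log2 change went from -0.01 ± 1.05 (SE) to 2.10, still not passing (adjusted p = 0.338, edgeR).

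Of the 6 tested carriers of the outer membrane or without an assigned substrate, 1 fell. Slc25a53, on chromosome X (136981116 to 137038302, minus strand), was at 11.7, 8.75 and 6.81 CPM in the young and 0, 0.741 and 0.254 CPM in the aged group, from 225, 215 and 134 against 0, 11 and 4 counts. The groups did not overlap, and it fell, with a log2 change of -4.75 ± 1.17 (SE; edgeR adjusted p = 0.01552), with -6.08 to -4.18 when single libraries were left out. Leaving out young library 1 (adjusted p = 0.0793) or young library 2 lost the call, as did limma-voom. Slc25a45 was at 15.6, 13.0 and 14 CPM in the young and 4.37, 0 and 5.72 CPM in the aged group, with no overlap. Its log2 change of -2.08 ± 1.05 (SE; edgeR adjusted p = 0.2077) did not pass. Slc25a46, which acts in mitochondrial fusion and fission, was at 39.0 ± 18.0 and 48.7 ± 20.1 CPM (SD, n = 3 each). Slc25a35, Slc25a43 and Slc25a47 had mean levels of 0.63 to 5.84 CPM in the young and 0.466 to 4.63 CPM in the aged group, and 31.3% of the exons of Slc25a35 overlap Rangrf on the opposite strand.

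**Figure D5:**
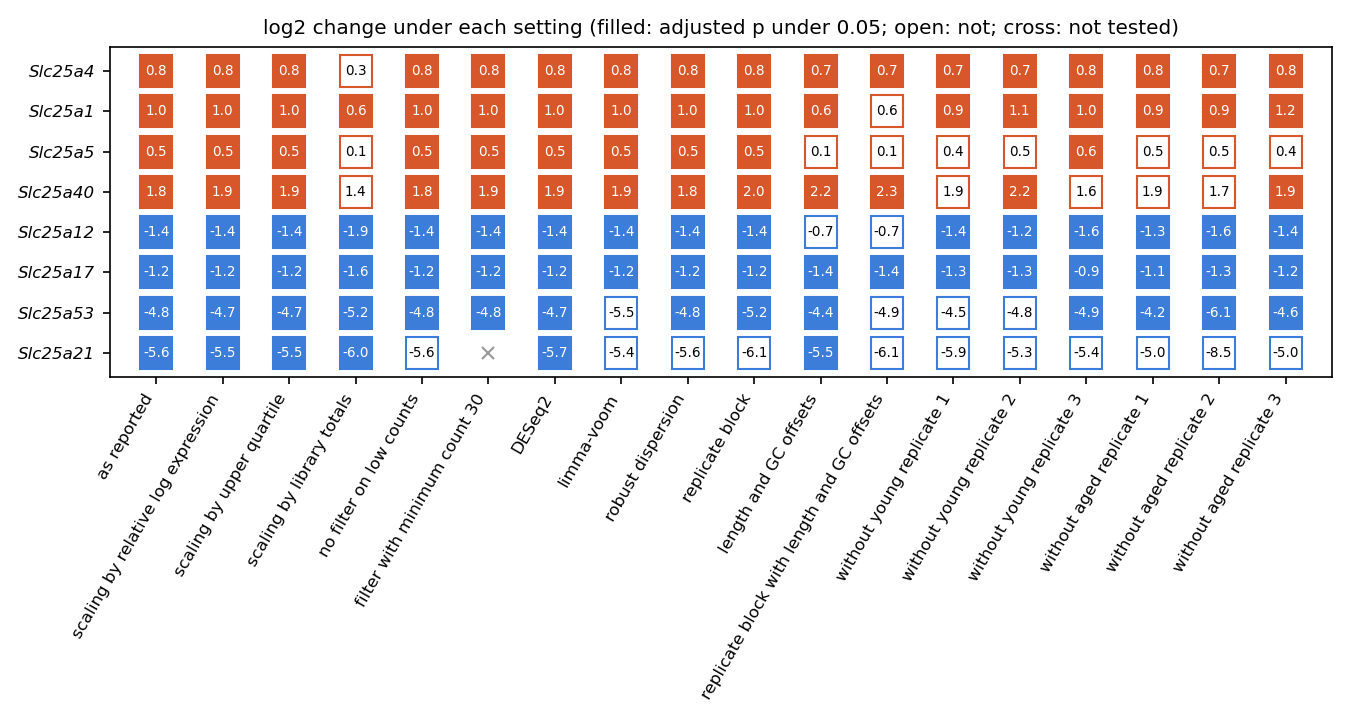
Log2 change of the 8 called carriers (lines) under the reported fit and each alternative (columns), filled where the adjusted p was under 0.05. Slc25a17 is filled throughout, while Slc25a5, Slc25a40, Slc25a53 and Slc25a21 lose the call when single libraries are left out.

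Transcript length moved with the changes. Across the 39 tested carriers the Spearman correlation of log2 change with the length of the longest transcript was -0.20, and across 11704 tested genes it was -0.348, where genes share libraries and are not independent. The median log2 change was 0.497 in the fifth of tested genes with the shortest transcripts and -0.479 in the fifth with the longest. The median length of the tested carriers, 3145 bases, was close to that of all tested genes, 3238 bases. With offsets for length and GC content 3 carriers were higher and 3 lower, 15.4% of those tested against 16.9% of all tested genes, and the calls of Slc25a5 and Slc25a12 were those lost.

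Genes that act with the carriers were taken from fixed lists and counted in the same test. Of the carrier family members with other symbols 1 of 3 tested rose, Mtch2, an outer membrane insertase, with a log2 change of 0.69 ± 0.16 (SE; edgeR adjusted p = 0.01056). Ucp2, an uncoupling protein homologue, was at 1130 and 910 CPM and did not pass. Of 15 ATP synthase genes, whose product uses the ADP and phosphate that the carriers import, 10 rose and none fell, with a median log2 change of 0.73. Among them Atp5j2 rose by 0.97, Atp5g3 by 0.73, Atp5e by 1.03 and Atp5h by 0.94. The most abundant gene of this list, Atp5b, was at 1850 and 1580 CPM and did not pass, with a log2 change of -0.22. Nor did Atp5a1 (-0.16), Atp5c1 (0.07), Atp5f1 (0.33) and Atp5l (0.66). These log2 changes are without offsets for transcript length and GC content. Of 16 genes for the machinery that imports and inserts carriers 6 rose and 1 fell, with a median of 0.41, with log2 changes of 1.02 for Tomm6, 1.14 for Tomm7, 0.99 for Timm10b and 0.80 for Timm13. The gene that fell was Tomm70a, a receptor for carrier precursors, with -0.58 ± 0.18 (SE; edgeR adjusted p = 0.04668).

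Of 16 tested genes of other mitochondrial transport 3 rose and 2 fell. Mpc2 and Mpc1, which form the pyruvate carrier outside this family, rose by 1.34 ± 0.15 and 0.88 ± 0.20 on the log2 scale (SE), and Smdt1, of the calcium uniporter, by 0.54, while Sfxn1, a serine carrier, fell by 0.62. Of the enzymes of the malate-aspartate shuttle 0 of 4 passed, with a log2 change of -0.47 ± 0.19 (SE) for Got2. Likewise 0 of 4 enzymes of cytosolic citrate use passed, with -0.79 ± 0.32 (SE) for Fasn, beside the rise of the citrate carrier. Of 12 genes for iron-sulfur clusters and heme 2 rose and 2 fell. Fdx1 rose by 1.40 on the log2 scale, while Cpox and Fech fell by 1.68 and 1.03. Folate enzymes had 1 of 6 that fell, Mthfd1, by 1.43. Of 10 general mitochondrial genes 4 fell and none rose, Immt by 1.07, Hspd1 by 0.77, Polrmt by 1.86 and Hspa9 by 0.51. These counts stand beside 11.2% higher and 8.14% lower calls over all tested genes. For all the lists of related genes, counts and log2 changes are with TMM scaling and without offsets for transcript length and GC content. Scaling by library totals moved the median log2 change of all tested genes from -0.101 to -0.517.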

How the data were processed

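Single-end 75 bp reads were made from 3 young and 3 aged RNA libraries, grouped by their titles. The authors deposited a table of raw counts per gene symbol, whole numbers without normalization, with totals of 16477157 to 20804291. Columns were matched to samples by the description in the labels. Per the submitters' processing notes the build was mm10 and STAR 2.5.3a and Cufflinks 2.0 were among the tools. How reads were counted, on which annotation and with which strand setting is not given in the sources used here, so reads of overlapping genes on either strand cannot be told apart.

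Counts were analysed with edgeR 4.0.16 in R 4.3.3 (filterByExpr with a minimum count of 10 and a minimum total of 15, TMM, glmQLFit and glmQLFTest, Benjamini-Hochberg threshold of 0.05). The SE of a log2 change is its size over the root of F. The common biological coefficient of variation was 53%. Positions and lengths come from GENCODE vM21 (GRCm38, the assembly of mm10), promoters from RefSeq (GRCm38.p6), and copies from blastn. For CPM, 3 counts is the limit given for a gene with 0 counts. The test was run on simulated data with known changes before use. It recovered 20% of the 2-fold and 59.6% of the 4-fold changes, and 5.06% of its calls were false. Those data held 95 genes with a 2-fold and 94 with a 4-fold change, of 11457 tested. In the 6 libraries 2286 of 11805 tested genes were called (19.4%). Recovery with that many changed genes was not tested. A carrier that did not pass may still have changed. Alternatives were other scalings and filters, DESeq2 1.42.0, limma-voom (limma 3.58.1), robust dispersion, a replicate block, length and GC offsets (mgcv) and leaving out each library. Named are the called carriers, the ADP/ATP, phosphate and aspartate/glutamate carriers, at least 2 tested carriers of each role by smallest p (others by their levels), and from each list of related genes up to 4 called ones or that of smallest p. Ucp2, Tomm70a and the ATP synthase genes that did not pass were added after their values were seen. The members and lists were chosen with earlier results of these data known. Of the tested carriers 1, which did not pass, is counted but not reported by name here or drawn.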

Additional observations from a re-analysis of the deposited data

How the results depend on the processing

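Over 17 alternatives the 19 carriers with a reported log2 change kept direction and call in 267 of 322 comparisons, where staying uncalled counts as kept. Of the called carriers Slc25a17 kept its call in 17 of 17, Slc25a1 and Slc25a4 in 16 and Slc25a12 in 15. Slc25a53 kept it in 13, Slc25a40 in 12 and Slc25a5 in 9 of 17, and Slc25a21 in 5 of 16. Scaling by library totals gave 1 higher and 8 lower carriers, 23.1% of those tested against 26.2% of all genes, with a median of -0.526 beside -0.517 over all tested genes. In limma-voom 2 were lower (5.13%, against 8.45% of all genes). With the replicate block 4 were higher and 3 lower (17.9%, against 17% of all genes), 2008 genes passed in all, and Slc25a21 lost its call (adjusted p = 0.087). Same-numbered libraries did not pair (correlations of 0.0196, 0.00883 and 0.0414), and not every library correlated best with its own number: young library 2 did so with aged library 1. The replicate block together with length and GC offsets left 2 higher and 1 lower (7.69%, against 13.8% of all genes), without Slc25a5, Slc25a12, Slc25a1 (0.64, adjusted p = 0.0539), Slc25a53 (0.0506) and Slc25a21 (0.0977). When single libraries were left out, higher calls ran from 2 to 3, lower calls from 2 to 4 and calls over all genes from 1314 (without young library 1) to 2141, with 1515 without young library 2. Calls in either direction then made up 10.3 to 17.9% of tested carriers and 10.8 to 17.5% of all tested genes.

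Directions turned for carriers that did not pass. With library totals Slc25a39 was at -0.117 and Slc25a14 at -0.190. With length and GC offsets Slc25a3 was at 0.292, Slc25a51 at 0.005, Slc25a39 at -0.059 and Slc25a30 at 0.340, and with the block added at 0.293, 0.018, -0.064 and 1.381. Slc25a30 was also at 0.036 (relative log expression and DESeq2), 0.050 (upper quartile), 0.749 (limma-voom) and 1.026 (replicate block), and from -0.447 to 2.099 without single libraries. The cause was not tested. Slc25a21 was not tested with a minimum count of 30. Carriers below about 10 CPM rest on few counts.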

Other observations

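Some carriers of low abundance had 0 counts in a library beside 30 or more in another library of the same group. This held for 4 of the 39 tested carriers (10.3%), against 871 of 11805 tested genes (7.38%). Slc25a29, a carrier of basic amino acids, had 105, 89 and 0 counts in young and 17, 130 and 158 in aged libraries. Slc25a47 had 55, 34 and 49 counts in young and 0, 0 and 53 in aged libraries. It lies 163 bases from Slc25a29 on chromosome 12, on the other strand, and the libraries at 0 differ between these neighbours. Slc25a41 had 46, 63 and 0 counts in young and 33, 106 and 0 in aged libraries, and Slc25a45 had 66, 0 and 90 counts in aged libraries.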
